A study of Homo sapiens with 8 samples.

Results

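The genes described here are 9 markers and peptides of neuroendocrine cells: *NCAM1*, *RET*, *SRRM4*, *SVOP*, *PRPH*, *NKX2-1*, *CALCA*, *NTS* and *GAL*. They were picked by symbol in the platform's probe annotation, and each was read by 1 transcript cluster, a set of probes summarized together, so 9 of the 4072 genes named in the table are covered. RNA came from LNCaP, an androgen-responsive human prostate carcinoma line. Of the 8 clonal isolates, 4 over-expressed *HIST1H1A* (clones 2, 8, 9 and 10), which encodes the linker histone H1.1, and 4 carried a control vector (clones 3, 4, 8 and 9). All 8 had been transduced with lentivirus and selected with blasticidin, and each is the progeny of a single cell measured on 1 Affymetrix Human Gene 2.0 ST array, so differences between clones and differences in measurement cannot be told apart. *HIST1H1A* itself was not analysed here, and the labels could not be checked against it.

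Neuroendocrine cells store peptide hormones in dense-core vesicles and release them on a signal, and they share adhesion molecules, vesicle proteins, neural splicing factors and transcription factors with neurons. In the prostate they are rare among luminal cells, and carcinomas that take on this phenotype usually lose androgen receptor signaling. Pathologists recognize such tumors by proteins such as NCAM1, also known as CD56, the chromogranins and synaptophysin. *CHGA*, *CHGB* and *SYP* were not analysed here.

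Of the 9 genes, *NCAM1* was higher in *HIST1H1A* clones and 8 did not pass the test (limma, Benjamini-Hochberg adjusted p under 0.05 over 16377 clusters). Over all clusters 3.77% were higher and 2.02% lower at that threshold, and over the 4247 clusters with a gene symbol 8.45% were higher and 3.72% lower. The count for these genes, 1 higher and 0 lower, is 11.1% of them, a share near that background. The median difference of the 9 genes was 0.13 on the log2 scale, against -0.013 over all clusters and 0.029 over clusters with a gene symbol. Of the 9 differences 6 were positive, beside 2312 of the 4247 clusters with a gene symbol. The difference is always *HIST1H1A* minus control, and fewer cells that express a gene cannot be told apart from less RNA per cell.

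Across clusters, r between arrays was 0.964 to 0.977 within the *HIST1H1A* group and 0.932 to 0.967 within the control group. Between arrays of different groups r was 0.916 to 0.948, which overlaps the range within the control group. Array medians lay between 3.25 and 3.30. The clones were also compared at markers of cell identity. All 6 measured genes of a luminal prostate list of 28 fell, *FOLH1* 62.9-fold, *EHF* 38.3-fold and *TSPAN1* 13.9-fold. *FOLH1* averaged 2.65 and *TSPAN1* 2.85 in *HIST1H1A* clones, both under 3.27, the table's median, so these folds rest on signals not shown to be above background. The mean log2 signal of the 6 was 4.27 to 4.37 in *HIST1H1A* clones and 7.22 to 7.73 in control clones. Of 5 measured genes that PC-3 cells, another prostate line, are known for, *VIM* and *CD44* rose and 3 did not pass. The mean signal of the 5 was 3.91 to 4.23 in *HIST1H1A* clones and 3.34 to 3.44 in control clones. Their median difference was -0.066, and *VIM* had the largest, 2.86. The control mean of *CD44*, 2.78, lay under 3.27, and its call was lost without *HIST1H1A* clone 9 (adjusted p = 0.053 from limma). Of 5 fibroblast genes *VIM* alone rose, and 0 of 4 blood cell genes passed (at 3.05 to 3.26 in *HIST1H1A* clones and 3.05 to 3.36 in control clones). These shifts move with the group at every gene below, and their part in the results was not tested.

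*NCAM1*, a neural cell adhesion molecule of the immunoglobulin superfamily, had log2 signals of 5.63, 4.95, 5.47 and 5.70 in *HIST1H1A* clones 2, 8, 9 and 10. In control clones 3, 4, 8 and 9 the signals were 4.41, 4.14, 4.27 and 3.49. The lowest *HIST1H1A* clone, clone 8, lay above the highest control clone, and control clone 9 lay below the other controls. Means were 5.44 ± 0.34 in *HIST1H1A* clones and 4.08 ± 0.41 in control clones (SD, n = 4 each), a difference of 1.36 (standard error 0.24, adjusted p = 0.0116 from limma) or 2.57-fold. Its 95% confidence interval ran from 1.76-fold to 3.74-fold. The exact two-sided permutation test gave p = 0.0286, the smallest that 4 clones against 4 allow. *NCAM1* also met a rule that adds a fold over 2 to the threshold, as did 3.77% of all clusters. The methods' t-test, stated by the study for other assays and not for these arrays, gave an adjusted p of 0.0567. The gene did not pass against a fold of 2 as the null (adjusted p = 1.0 from limma treat). Without control clone 9 the difference was 2.24-fold.

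Genes of NCAM1 binding partners and related adhesion molecules were looked at next, leaving out *NCAM1* itself. The list of 37 genes also held *TTC12* and *ANKK1*, which are neither. Of the 37, 11 were measured: 3 rose, 0 fell and 8 were not called. The median difference of 0.0094 was the value of *ANKK1*, so it does not describe partners and adhesion molecules alone. Measured means that a cluster carried the symbol in the annotation used here, and the counts for each list below likewise leave out the 9 genes. *GFRA1* encodes a lipid-anchored receptor of GDNF (glial cell line-derived neurotrophic factor) that pairs with RET or with NCAM1. It had signals of 5.44, 5.95, 6.16 and 5.85 in *HIST1H1A* clones, against 4.55, 3.85, 4.59 and 3.86 in control clones, and the groups did not overlap. The rise was 3.11-fold (adjusted p = 0.00382 from limma). *FGFR2*, one of the fibroblast growth factor receptors that NCAM1 can engage, rose 2.41-fold (adjusted p = 0.00245 from limma) with a control mean of 3.14, below 3.27, the median of all values in the table. The other gene past the threshold was *CADM1*, a synaptic adhesion molecule named after its value was seen, which rose 2.16-fold in its brighter cluster (adjusted p = 0.00095 from limma), with a control mean of 2.67 that also lay below that median, and had a difference of 0.13 in its other cluster (adjusted p = 0.757 from limma).

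The chromosomal neighbors of *NCAM1* on chromosome 11 had smaller differences. *NCAM1-AS1*, whose name marks it as an antisense RNA of this locus, averaged 3.91 in *HIST1H1A* clones and 3.78 in control clones, a difference of 0.13 (adjusted p = 0.80 from limma). The strand that either cluster reads was not checked. *TTC12*, which lies near *NCAM1*, had a difference of -0.45 without a call (limma, adjusted p = 0.337), although its groups did not overlap. *PLET1*, the nearest measured gene on the other side, was at -0.071. Both *NCAM1-AS1* and *TTC12* were singled out after their values were seen.

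By the shape of the profile over the 8 arrays, the named genes closest to *NCAM1* were *ANO4*, *UBASH3B* and *IFFO1*. The root mean square distance between centered log2 profiles was 0.150, 0.203 and 0.220. They rose 2.65-fold, 2.91-fold and 2.79-fold, with control means of *ANO4* (2.74) and *IFFO1* (3.07) below the median of all values. This distance uses the group difference itself and is a description only.

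*RET*, the receptor tyrosine kinase through which GDNF family ligands act together with a GFRA co-receptor, had signals of 3.87, 4.34, 3.74 and 3.82 in *HIST1H1A* clones. The control clones were at 3.56, 3.70, 2.47 and 3.30. The groups did not overlap, but the gap between *HIST1H1A* clone 9 and control clone 4 was narrow and control clone 8 lay far below the others. Groups did not overlap, in either direction, in 11.1% of all clusters and in 835 of the 4247 clusters with a gene symbol. With *HIST1H1A* above control the share was 6.47% of all clusters. Means were 3.94 ± 0.27 in *HIST1H1A* clones and 3.26 ± 0.55 in control clones (SD, n = 4 each). The control mean lay just below 3.27, the median of all values in the table. The difference was 0.69 (standard error 0.27) or 1.61-fold, short of the threshold (limma, adjusted p = 0.257, exact permutation p = 0.0286). Its unadjusted 95% interval ran from 1.05-fold to 2.47-fold. Without control clone 8 the difference was 1.34-fold (adjusted p = 0.325 from limma).

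The RefSeq promoter table (GRCh38.p14) held 7 of the 9 genes in 9 windows, since *RET* and *NKX2-1* have 2 start sites each. It had no window for *NCAM1*, the gene that passed, or for *GAL*. Only the 250 bases before a start are considered. The windows of *RET*, *PRPH* and *NTS* are shown because they span the range of CpG content among these 7 genes, and each CpG is in capitals. Whether CpG content goes with a difference between groups was not tested. *RET* is chr10:43076819-43077068 on the plus strand, *PRPH* chr12:49294897-49295146 on the plus strand and *NTS* chr12:85874045-85874294 on the plus strand.
RET: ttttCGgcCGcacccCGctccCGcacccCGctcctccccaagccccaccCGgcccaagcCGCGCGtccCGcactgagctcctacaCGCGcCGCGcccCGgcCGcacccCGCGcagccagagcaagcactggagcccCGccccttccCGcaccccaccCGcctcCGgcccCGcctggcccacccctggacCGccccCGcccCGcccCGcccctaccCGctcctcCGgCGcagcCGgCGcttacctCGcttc
PRPH: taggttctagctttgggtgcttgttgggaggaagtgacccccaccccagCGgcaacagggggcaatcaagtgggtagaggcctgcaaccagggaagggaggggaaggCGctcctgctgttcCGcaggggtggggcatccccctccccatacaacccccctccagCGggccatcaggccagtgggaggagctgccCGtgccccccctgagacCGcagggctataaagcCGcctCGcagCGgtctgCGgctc
NTS: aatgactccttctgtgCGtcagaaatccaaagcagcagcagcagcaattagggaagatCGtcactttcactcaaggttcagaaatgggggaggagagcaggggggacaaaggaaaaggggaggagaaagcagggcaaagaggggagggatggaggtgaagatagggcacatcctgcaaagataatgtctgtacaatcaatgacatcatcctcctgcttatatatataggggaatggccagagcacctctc
The *RET* window held 33 CpG and 79.6% G and C, the *PRPH* window 10 CpG and 66.8%, and the *NTS* window 2 CpG and 49.2%. Of all 35116 windows, 8.15% held at least 33 CpG and 22.9% held 2 or fewer, with a median of 11. The other *RET* start had 6 CpG. *SRRM4* had 20, *NKX2-1* 18 and 7, *CALCA* 11 and *SVOP* 10. The motif TATAAA, searched on both strands, was found only in the *PRPH* window among these 9, starting at position -31 from the start site, and in 10.7% of all windows. The left part of the RE1 element bound by the neuronal repressor REST, searched as TTCAGCACC on both strands, was in 0 of the 9 windows and in 0.288% of all windows. These are matches of letters only and say nothing of which factor binds.

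Around *RET*, 7 of 46 listed genes were measured, and *GFRA1* and *SPRY2* rose while 5 did not pass. The list was of ligands, co-receptors and adaptors, but the 7 include *SPRY2*, *HRAS* and *NCOA4*, which are none of these. The median difference of the 7, -0.13, was the value of *ARTN* and does not describe ligands, co-receptors and adaptors alone. *SPRY2* encodes a feedback inhibitor of receptor tyrosine kinase signaling. Its signals were 7.56, 6.53, 6.77 and 6.78 in *HIST1H1A* clones and 5.03, 4.44, 4.79 and 3.75 in control clones, with no overlap and a 5.30-fold rise (adjusted p = 0.00239 from limma). *ARTN*, the ligand artemin, averaged 4.13 in *HIST1H1A* clones and 4.26 in control clones, a difference of -0.13 (adjusted p = 0.866 from limma). The measured neighbors of *RET*, *ZNF33B* and *CSGALNACT2*, had differences of -0.26 and 0.58 and did not pass.

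**Figure D1:**
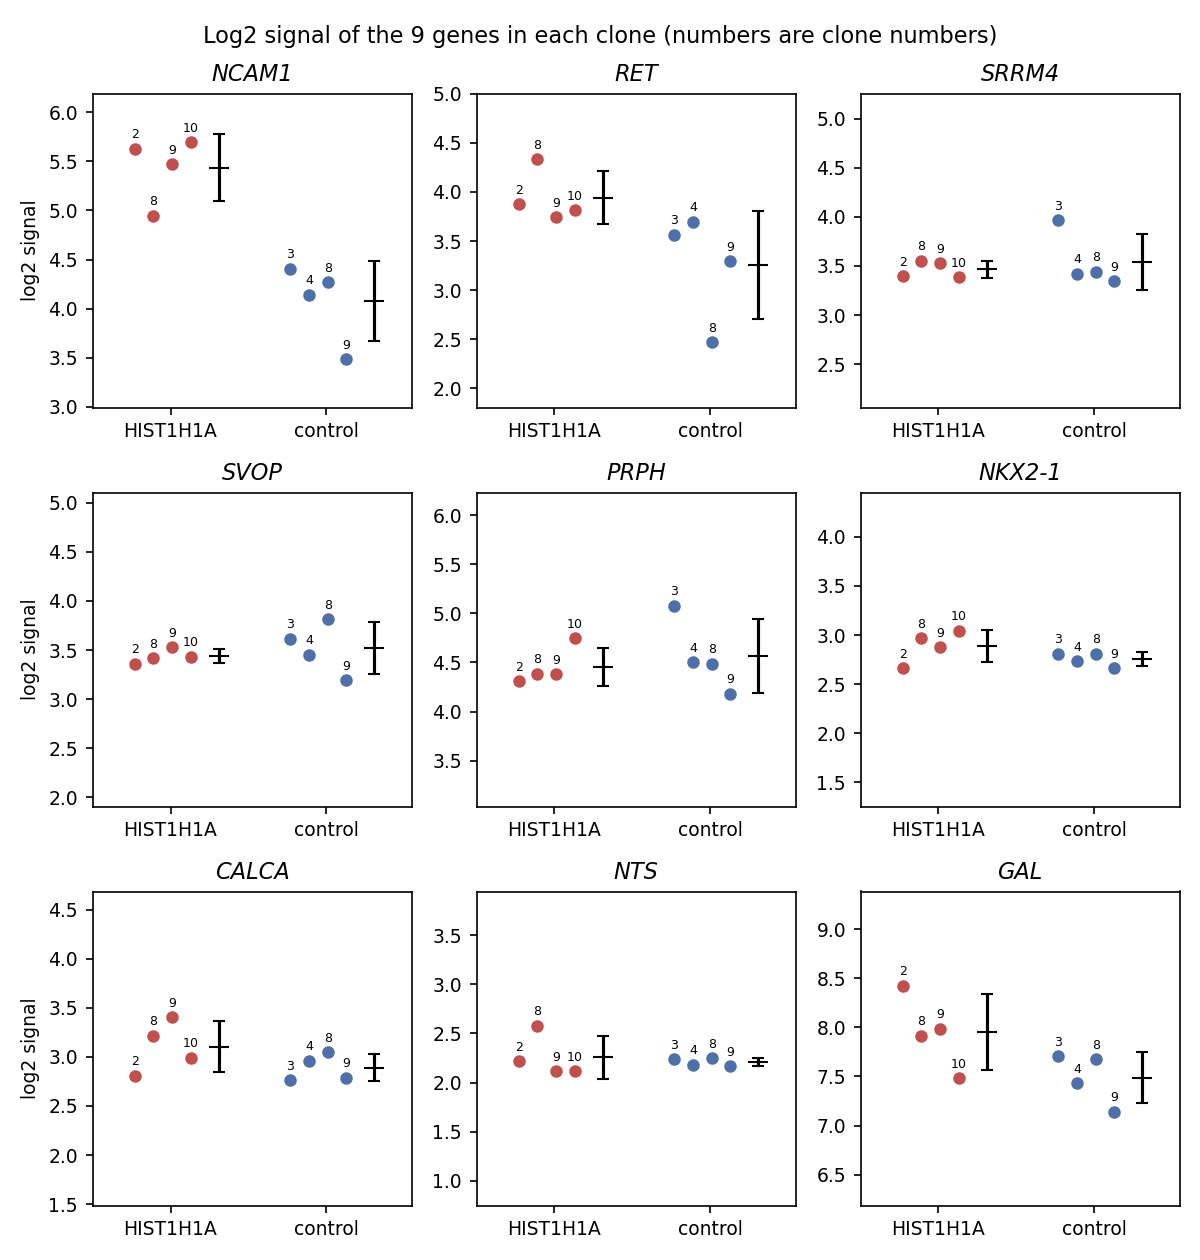
Log2 signal (vertical axis, log2 units, each panel 3.2 units high) of the 9 genes in each of 4 *HIST1H1A* clones (left, red) and 4 control clones (right, blue). Points carry clone numbers, and black bars are the mean with 1 SD. *NCAM1* and *RET* are the genes whose groups do not overlap.

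*SRRM4*, a splicing factor that promotes inclusion of short neural exons and alters REST, had signals of 3.40, 3.55, 3.53 and 3.38 in *HIST1H1A* clones. In control clones it was at 3.97, 3.42, 3.44 and 3.34. Control clone 3 stood above all other clones, and the remaining 7 lay within a narrow band. The difference was -0.079 (95% interval 0.742-fold to 1.21-fold, adjusted p = 0.894 from limma), and it was 0.062 without control clone 3. Of 47 genes of neural splicing and REST co-repression 10 were measured: 3 rose, 0 fell and 7 were not called (median difference 0.53). The splicing regulator *MBNL2* rose 2.91-fold, the SR protein gene *SRSF4* 1.99-fold and *KDM1A*, the histone demethylase of the REST co-repressor complex, 1.56-fold (adjusted p = 0.0112, 0.00228 and 0.0363 from limma). Over 15 other settings with 7 or 8 arrays, the *KDM1A* call was lost in 8 and the *MBNL2* call in 1, the methods' t-test (adjusted p = 0.0577). *RCOR2*, a co-repressor of the same complex singled out after its value was seen, averaged 5.10 in *HIST1H1A* clones and 4.01 in control clones, with overlapping groups (limma, adjusted p = 0.0569), and passed in 6 of the 15 settings. *REST* was not analysed here.

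*SVOP* encodes a transporter-like protein of synaptic vesicles that is related to the SV2 family. Its signals were 3.36, 3.42, 3.53 and 3.43 in *HIST1H1A* clones and 3.62, 3.45, 3.81 and 3.19 in control clones. The *HIST1H1A* clones fell inside the range of the controls. The difference was -0.084 (95% interval 0.751-fold to 1.19-fold, adjusted p = 0.879 from limma). *SV2A*, the SV2 glycoprotein found on most synaptic and endocrine vesicles, had signals of 7.57, 8.20, 8.19 and 7.89 in *HIST1H1A* clones and 4.53, 5.00, 4.64 and 4.75 in control clones. Groups were far apart, with a 9.37-fold rise (adjusted p = 2.89e-05 from limma).

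Of 80 other genes of regulated secretion and synaptic vesicles 21 were measured: 4 rose, 1 fell and 16 were not called, with a median difference of 0.20. Besides *SV2A*, *SYT11* rose 6.46-fold and *SYPL2* 2.60-fold (adjusted p = 0.00021 and 0.00228 from limma). *SYT11* is an atypical synaptotagmin that does not bind calcium in the usual way, and *SYPL2* belongs to the synaptophysin family and is known mostly from muscle. *SYT2*, a calcium sensor of fast release named after its value was seen, rose 1.65-fold (adjusted p = 0.0299 from limma). *SYT7*, a high-affinity calcium sensor of vesicle fusion, was 1.93-fold lower (adjusted p = 0.0255 from limma), at 4.33, 4.17, 4.37 and 4.43 in *HIST1H1A* clones and 5.68, 5.56, 5.02 and 4.83 in control clones. The calls of *SYT2* and *SYT7* were lost in 8 and 7 of the 15 settings.

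**Figure D2:**
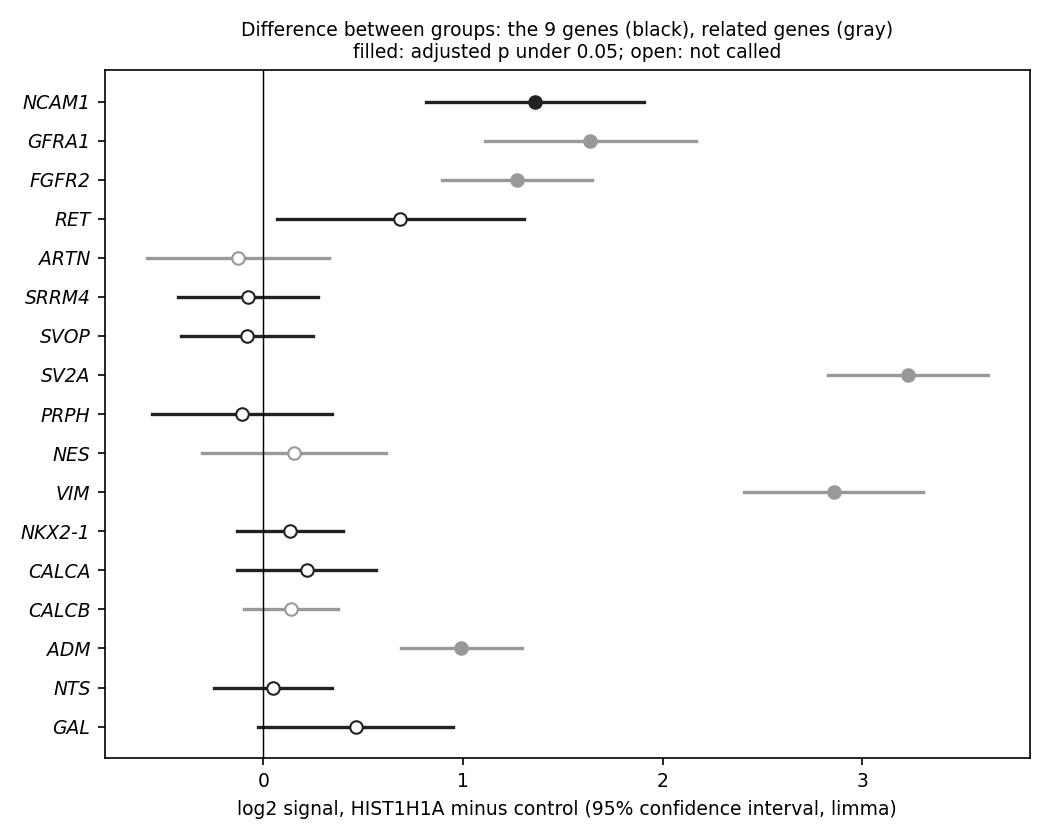
Difference in log2 signal, *HIST1H1A* minus control (horizontal axis, log2 units), with the 95% confidence interval from limma, for the 9 genes (black) and related genes (gray). Filled points passed an adjusted p under 0.05. Among the 9 genes *NCAM1* alone is filled, while *SV2A*, *VIM*, *GFRA1*, *FGFR2* and *ADM* are filled among related genes.

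*PRPH*, which encodes peripherin, an intermediate filament protein of peripheral neurons, had signals of 4.31, 4.39, 4.38 and 4.75 in *HIST1H1A* clones and 5.08, 4.50, 4.49 and 4.18 in control clones. The ranges overlapped, with the highest and the lowest values both among controls. The difference was -0.11 (95% interval 0.679-fold to 1.27-fold, adjusted p = 0.887 from limma), and 0.065 without control clone 3. Of 37 other genes of the neuronal cytoskeleton 7 were measured: 2 rose, 0 fell and 5 were not called (median difference 0.41). *VIM*, the gene of vimentin and a filament of the same class as peripherin, rose 7.24-fold in its brightest cluster (adjusted p = 9.85e-05 from limma). The same gene was counted among the PC-3 and fibroblast genes above, so its rise is not particular to neurons. Its other clusters had log2 differences of 2.11 (limma, adjusted p = 0.0031) and 0.73 (limma, adjusted p = 0.157, not called). *KIF5A*, the heavy chain of a neuronal kinesin motor, rose 2.39-fold (adjusted p = 0.0184 from limma), but fell short in 3 of those 15 settings. *NES*, the filament nestin of neural progenitors, had a difference of 0.15 (adjusted p = 0.836 from limma).

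*NKX2-1* encodes a homeobox factor of thyroid, lung and forebrain that is also known as TTF-1 and is stained for in small-cell carcinoma. It had signals of 2.66, 2.97, 2.88 and 3.04 in *HIST1H1A* clones and 2.81, 2.73, 2.81 and 2.66 in control clones. Of the *HIST1H1A* clones 3 lay above all controls and clone 2 at the bottom of their range. The difference was 0.13 (95% interval 0.911-fold to 1.32-fold, adjusted p = 0.734 from limma). In both groups the mean was under 3.27, the median over the table, which also held for *CALCA* and *NTS*. No background level was used here, so a low signal in these 3 genes limits what a difference can show.

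Of 70 other listed NKX and neural transcription factors 31 were measured: 8 rose, 0 fell and 23 were not called, with a median difference of 0.21. *POU4F1*, a factor of sensory neurons, had signals of 7.52, 7.18, 7.03 and 7.01 in *HIST1H1A* clones and 5.32, 5.37, 4.96 and 4.51 in control clones. It rose 4.42-fold (limma, adjusted p = 0.000623). *ZIC2*, a zinc finger factor of the neural tube, rose 2.99-fold and *PAX6*, a factor of the eye, brain and endocrine pancreas, 2.87-fold (adjusted p = 0.00221 and 0.000984 from limma). The control mean of *PAX6* lay below the median of all values. *INSM2*, the nearest measured gene before *NKX2-1* in chromosomal order and a relative of the neuroendocrine factor INSM1, was at -0.12 (adjusted p = 0.725 from limma).

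*CALCA* gives rise by alternative splicing to the hormone calcitonin and to the neuropeptide CGRP, and its cluster does not separate them. Its signals were 2.81, 3.22, 3.41 and 2.99 in *HIST1H1A* clones and 2.76, 2.96, 3.05 and 2.79 in control clones. Clones 8 and 9 of the *HIST1H1A* group lay above all controls and the other clones overlapped. The difference was 0.22 (95% interval 0.914-fold to 1.48-fold, adjusted p = 0.645 from limma), and 0.12 without *HIST1H1A* clone 9. *CALCB*, its closely related neighbor that encodes a second form of CGRP, had a difference of 0.14 (adjusted p = 0.672 from limma). How far the probes of this pair share target sequence was not checked.

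*NTS* encodes neurotensin, a peptide of gut and brain. It had signals of 2.22, 2.58, 2.12 and 2.11 in *HIST1H1A* clones and 2.24, 2.18, 2.25 and 2.17 in control clones. Apart from *HIST1H1A* clone 8 all clones lay within a narrow band. The difference was 0.048 (95% interval 0.842-fold to 1.27-fold, adjusted p = 0.930 from limma), and -0.059 without that clone. Receptors for neurotensin were not analysed here.

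*GAL* encodes galanin, a neuropeptide of the brain and gut that also occurs in endocrine tumors. Its signals were 8.42, 7.91, 7.99 and 7.48 in *HIST1H1A* clones, against 7.71, 7.43, 7.68 and 7.14 in control clones. Of the *HIST1H1A* clones 3 lay above all controls and clone 10 lay among them. Means were 7.95 ± 0.39 in *HIST1H1A* clones and 7.49 ± 0.26 in control clones (SD, n = 4 each). The difference was 0.46 (standard error 0.21) or 1.38-fold, short of the threshold (limma, adjusted p = 0.372, exact permutation p = 0.0857), with an interval of 0.982-fold to 1.93-fold. The *GAL* signal lay above the median signal in every clone of both groups. Its neighbors on chromosome 11 were *LRP5*, at 0.25 with no call, and *CPT1A*, which averaged 8.63 in *HIST1H1A* clones and 9.38 in control clones and fell (adjusted p = 0.0117 from limma).

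Of 75 other neuropeptides and peptide hormones 16 were measured: 1 rose, 0 fell and 15 were not called, with a median difference of -0.023. The gene that rose was *ADM*, which encodes adrenomedullin, a vasodilator peptide of the calcitonin family. Its signals were 6.13, 5.72, 5.62 and 5.88 in *HIST1H1A* clones and 4.95, 4.87, 4.78 and 4.79 in control clones. It rose 1.99-fold (limma, adjusted p = 0.0029). Of 90 neuropeptide receptors 17 were measured and 0 passed by limma, with a median difference of 0.11. Groups did not overlap in 2 of them (11.8%), beside 11.1% of all clusters and 835 of the 4247 clusters with a gene symbol. One of these, the endothelin receptor gene *EDNRB*, was singled out after its value was seen and averaged 3.90 in *HIST1H1A* clones and 3.23 in control clones (adjusted p = 0.0578 from limma). It passed in 2 of the 15 settings, with quantile normalization (limma, adjusted p = 0.0496) and with named clusters only (limma, adjusted p = 0.024). The control mean of *EDNRB* lay below the median of all values. The galanin receptors, the CGRP receptor *CALCRL* and its RAMP partners were not analysed here.

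**Figure D3:**
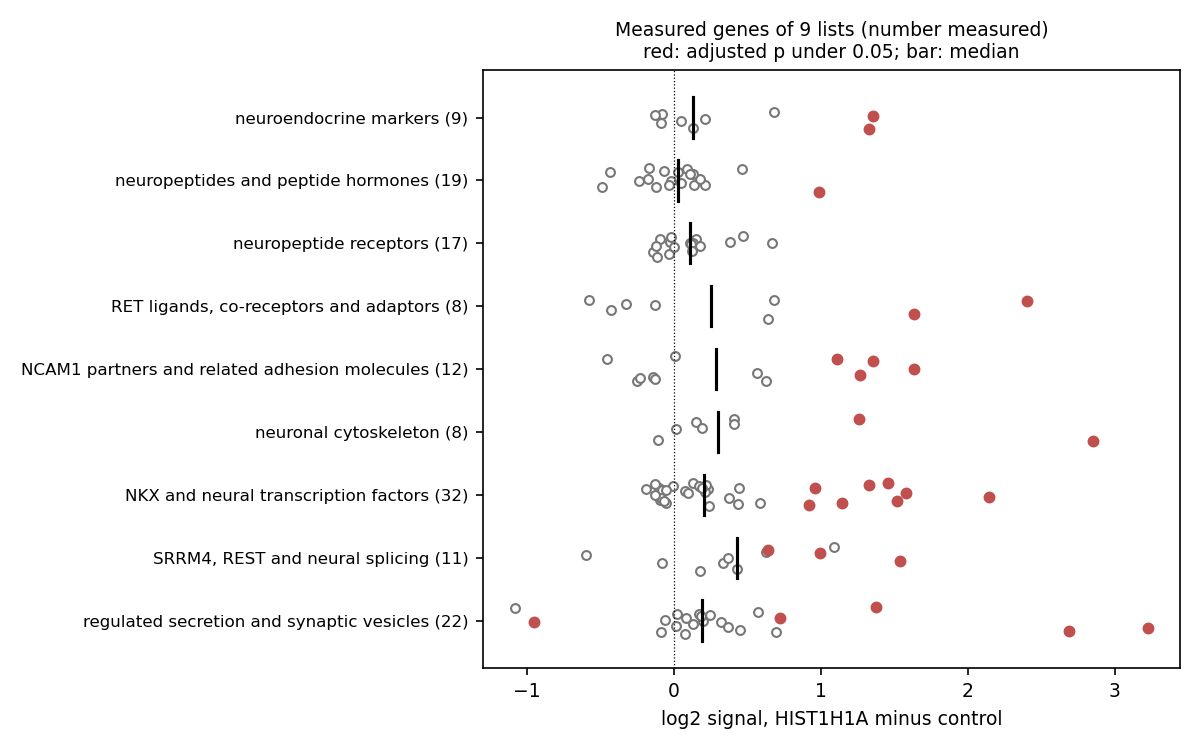
Difference in log2 signal, *HIST1H1A* minus control (horizontal axis, log2 units), of every measured gene in 9 lists, with the number measured in parentheses. Red points passed an adjusted p under 0.05, open points did not, and black bars are medians. The 9 genes are drawn in their lists and count in these numbers and medians. Red points lie to the right in every list that has any, except *SYT7*, and the list of neuropeptide receptors has none.

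A list of 43 neuroendocrine markers holds 7 of the 9 genes. Of its other 36, *PROX1* and *INSM2* carried a symbol in this annotation, and the rest were not analysed here. *PROX1* rose and *INSM2* was not called. *PROX1*, a homeobox factor of lymphatic, neural and endocrine development, had signals of 5.07, 5.03, 4.56 and 4.80 in *HIST1H1A* clones and 3.65, 3.49, 3.54 and 3.46 in control clones. It rose 2.52-fold (limma, adjusted p = 0.000733). Across the 9 lists, 119 genes other than the 9 described here were measured of 492 listed, of which 22 rose (18.5%) and 1 fell (0.84%), beside 8.45% higher and 3.72% lower over named clusters. Their median difference was 0.15, against 0.029 over clusters with a gene symbol. The lists share genes and were written with earlier results of these arrays known, so these shares describe the lists and were not tested against other genes.

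**Figure D4:**
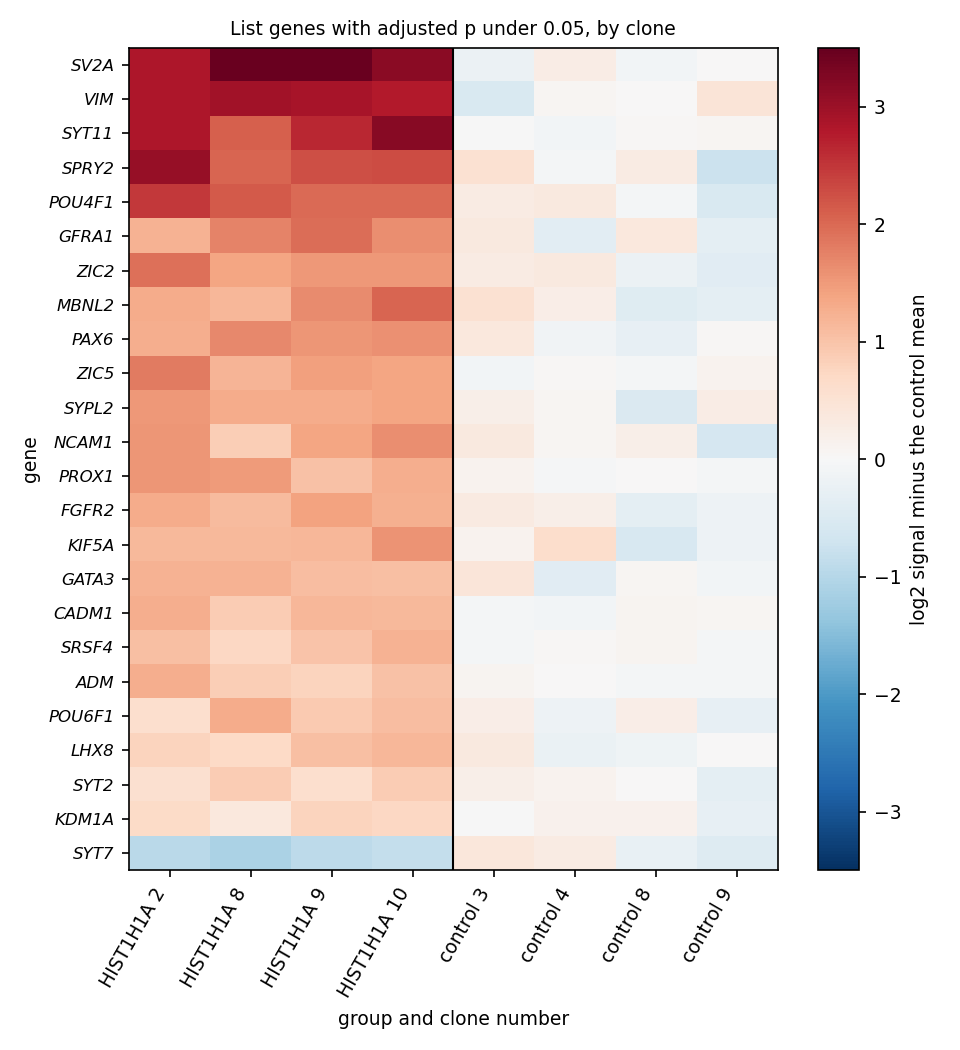
Log2 signal minus the control mean (color, log2 units) of the 24 list genes with an adjusted p under 0.05, by clone, with *HIST1H1A* clones left of the line and control clones right of it. All 23 genes that rose are red in all 4 *HIST1H1A* clones, and *SYT7* at the bottom is blue there.

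The 8 genes that did not pass differed in how wide a change in signal their intervals allow. For 7 of them, all but *RET*, the unadjusted 95% interval of the fold lay within a 2-fold change in either direction. The interval of *NCAM1* did not. Of the 7, *CALCA*, *NKX2-1* and *NTS* had both means below the median of all values, and *SRRM4* and *SVOP* lay little above it. No background level was used, so a narrow interval at such low signals need not bound a change in RNA. Control clone 9 had the lowest signal of the control group in 7 of the 9 genes. Without it *NCAM1* kept its call (adjusted p = 0.0138 from limma) and *GAL* was 1.27-fold higher with no call. Leaving out *HIST1H1A* clone 2 moved *GAL* further, to a difference of 0.30 (1.24-fold), again with no call. Among 18 named genes that flank the 9 in chromosomal order, 1 rose, *USP30* beside *SVOP* (difference 0.86, adjusted p = 0.00271 from limma), and 1 fell, *CPT1A*. These flanking genes were singled out after their values were seen.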

How the data were processed

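Total RNA of 4 *HIST1H1A* and 4 control clones was run on the Human Gene 2.0 ST platform (Affymetrix). The deposited values are log2 signals of transcript clusters that the authors computed with Partek. Its version, the background correction and the normalization: not given in the sources used here. The values were used as deposited. Of 16377 clusters, 4247 had 1 gene symbol, 0 had several and 12130 had none here. Symbols were checked by gene identifier. For genes with more than 1 cluster, the one with the highest mean signal was taken.

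Groups were compared with limma 3.58.1 (lmFit, eBayes) in R 4.3.3 over all clusters, with no covariates, Benjamini-Hochberg adjustment and a threshold of 0.05. Standard errors and 95% intervals are limma's. Single values were also compared by an exact permutation test over 70 splits. Tested on simulated arrays of 16377 clusters, with changes placed in bright clusters, the fit called 62 of 100 clusters changed by 1.5 on the log2 scale, 96 of 100 changed by 3, and 13 unchanged ones. The number of arrays limits the precision. With 1 array per clone, the p-values rest on differences between clones and differences in measurement together.

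The 9 genes and the gene lists were chosen with earlier results of these data known. Named were the 9 genes, up to 3 rises and 3 falls past the threshold per list, the measured ones of 28 direct partners (6), the 3 genes closest in profile to a called gene and 10 named after their values were seen. Alternatives were a plain t-test that the study states for other assays, with no test stated for the arrays (the methods' t-test), eBayes with a trend and robust, quantile normalization, median centring, a filter on dim clusters, clusters with a symbol only, a test against a fold of 2, array weights, the mean over a gene's clusters, a fold minimum, arrays of clones 8 and 9 with and without a replicate block, and leaving out each array. Promoter windows came from RefSeq.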

Additional observations from a re-analysis of the deposited data

Results flagged for a closer look

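Among the genes named, 92 groups of 4 clones were searched for a clone that stood apart from the other 3, and 2 did, where chance gives about 1 in 20 groups or 4.6 here. *SRRM4* was at 3.97 in control clone 3, with the nearest other control clone at 3.44. *KIF5A* was at 5.43 in *HIST1H1A* clone 10, with the nearest other *HIST1H1A* clone at 5.02. All are log2 signals.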

How the results depend on the processing

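There were 15 other settings with 7 or 8 arrays and a null of no change. Among the 29 named genes called by limma, 22 were called in each of them and 0 changed direction. *NCAM1* passed in 14 of the 15, with adjusted p from 0.00334 (array weights) to 0.0567 (methods' t-test), and in all 8 fits that leave out 1 array (2.24-fold to 2.87-fold). The 8 genes of the 9 that did not pass stayed so in each of these settings that tested them. The count of 1 called gene among the 9 became 0 with the methods' t-test, against a fold of 2, and with clones 8 and 9 with or without the block. The 23 list genes called higher became 4 against a fold of 2, and were 19 to 24 when 1 array was left out. The 1 called lower became 0 with the methods' t-test, against a fold of 2 and with a fold minimum of 2, became 2 with quantile normalization, the filter on dim clusters, named clusters only and array weights, and was 0 to 1 when 1 array was left out. Apart from settings that test fewer clusters or another null, the cause was not tested. The labels reuse the numbers 8 and 9 across groups without pairing the clones, and the correlation of their deviations was 0.0696 and -0.217. In these 4 arrays limma called 0 clusters of 16377 with a replicate block (2103 at an unadjusted p under 0.05) and 75 without it. List genes called higher were then 0 with the block and 2 without it, and those called lower 0 in both. *NCAM1* was 2.52-fold higher there (adjusted p = 0.33 with the block and 0.265 without it). Differences near 0 changed sign: in those 4 arrays *SRRM4* was at 0.15, *PRPH* at 0.049 and *ARTN* at 0.16, with and without the block. When 1 array was left out, *NTS* ranged from -0.059 to 0.095, *SRRM4* from -0.15 to 0.062, *SVOP* from -0.19 to 0.015, *PRPH* from -0.23 to 0.065 and *NES* from -0.048 to 0.26.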
